A study of Mus musculus with 6 samples.

Results

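The Slc25 genes encode the mitochondrial carrier family, and 36 of them were measured here in ribosome-bound RNA from injured mouse spinal cord at 7 days and 3 days after a contusion. They were chosen by symbol alone, as every row of the deposited expression table named Slc25a and a number, with Slc25a20 left out. They make up 36 of 13960 rows, and all 36 were among the 13042 genes tested. Another 10 Slc25a genes of the GENCODE M21 annotation (Slc25a1, Slc25a2, Slc25a21, Slc25a29, Slc25a31, Slc25a34, Slc25a41, Slc25a47, Slc25a48 and Slc25a54) were not analysed here.

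RNA was isolated by RiboTag immunoprecipitation, in which Cre recombinase switches on an epitope tag on a ribosomal protein so that ribosomes of the Cre-expressing cells can be pulled down with the transcripts they carry. The 3 libraries at 7 days and the 3 libraries at 3 days all came from injured tissue of chimeras labelled LysMCre:Rplfl/fl > CD45.1, which had received a contusion at spinal level T8. LysM-Cre is active in macrophages and in other myeloid cells, neutrophils included, so the tag is not restricted to macrophages. All libraries carry the injury, the Cre allele and the tag. The comparison is therefore between times after injury, with no uninjured cord and no unprecipitated RNA. Whether the libraries are separate animals is not given in the labels, so the p-values rest on a spread that may be technical.

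Most Slc25 proteins sit in the inner mitochondrial membrane, where each moves a particular metabolite between the cytosol and the matrix, often in exchange for another. They bring ADP and phosphate to ATP synthase and take ATP out, and they move the malate, aspartate, glutamate and oxoglutarate that carry reducing power across the membrane. Others import cofactors, nucleotides, iron and glutathione. Macrophages are known to rewire mitochondrial metabolism between inflammatory and reparative states, and several metabolites involved cross the membrane through these carriers.

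Of the 36 carriers, 9 were higher and 4 were lower at 7 days than at 3 days, and 23 did not pass the test. The values are FPKM, fragment counts divided by transcript length and library depth, and so can be set side by side between genes. Changes are log2 differences of FPKM + 1, 7 days minus 3 days. They understate changes at low levels, most near or below 1 FPKM but also at a few FPKM. They were tested with limma over all 13042 genes, and a gene was called where its Benjamini-Hochberg adjusted p was 0.05 or less. The 13 called carriers are 36.1% of the family, beside 39.1% of all tested genes. The 9 that rose are 25% of the family, against 18.8% of all tested genes called higher, and the 4 that fell are 11.1%, against 20.3% of all tested genes called lower. The share called in either direction lies near that over all genes, and none of these shares was tested or is read as particular to the family. The median change of the 36 carriers was 0.07, with a range of -1.16 to 0.96, and the median of all tested genes was -0.04. Among genes with a mean of 5 FPKM or more the order turned, with a median of 0.13 for the carriers and of 0.16 for all genes. In the authors' deposited table, 11 of the 36 carriers (30.6%) had a q-value of 0.05 or less, beside 38.4% of all tested genes, and all 11 were also called by limma in the same direction. The remaining 2 calls of limma, Slc25a23 and Slc25a24, had q-values of 0.219 and 0.103 in the authors' deposited table.

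**Figure D1:**
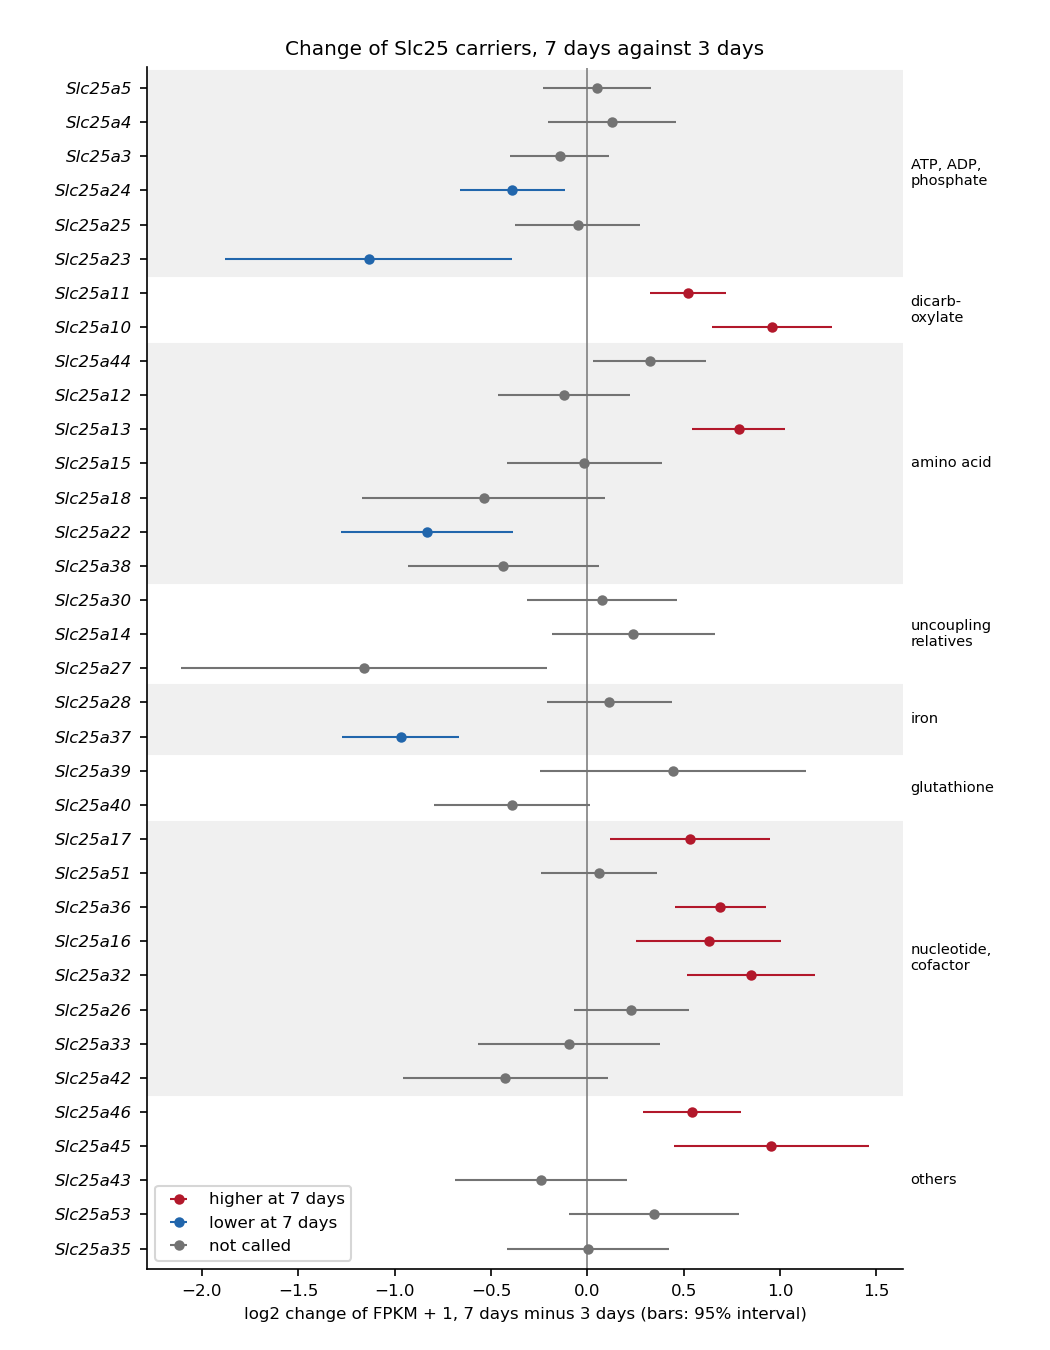
Log2 change of FPKM + 1 between 7 days and 3 days for 35 of the carriers, grouped by what they carry, with points for the estimate and bars for the 95% interval of the limma fit. The 9 red points are carriers called higher at 7 days, the 4 blue points are carriers called lower, and the 22 grey points were not called.

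The libraries differed in cell markers between the times. The 5 tested of 9 listed macrophage markers (Cd14, Csf1r, Fcgr1, Itgam and Mertk) summed to between 1088 and 1145 FPKM at 7 days and to between 1087 and 1243 FPKM at 3 days, and none was at 0 in any library. The sums overlapped, but Csf1r and Mertk were called higher at 7 days, Cd14 and Fcgr1 were called lower, and Itgam was not called. Sums of 5 microglia markers lay at 2136 to 2343 FPKM at 7 days and at 681 to 858 FPKM at 3 days, while sums of 6 inflammatory monocyte markers lay at 172 to 226 FPKM at 7 days and at 458 to 525 FPKM at 3 days. Neuron markers, all 9 of them called lower at 7 days, summed to 50.2 to 64.4 FPKM at 7 days and to 152 to 373 FPKM at 3 days. Astrocyte, oligodendrocyte and erythroid sums were likewise lower at 7 days. Sums of 6 neutrophil markers overlapped, at 31.2 to 49.0 FPKM at 7 days and 48.3 to 53.2 FPKM at 3 days. Of these markers S100a8 was called higher at 7 days, S100a9 was called lower and 4 were not called. Sums of 5 fibroblast and pericyte markers also overlapped, at 96.6 to 177 FPKM at 7 days and 100 to 252 FPKM at 3 days. Replicate 2 at 3 days stood apart with the highest neuron, astrocyte, oligodendrocyte and endothelial sums, and without it 8 carriers were called higher and 3 lower. In pull-down RNA with no unprecipitated RNA beside it, numbers of cells, RNA per cell and untagged RNA carried along cannot be told apart. The part of these markers in the carriers' changes was not tested.

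Levels differed widely within the family. Slc25a5 had the highest level of the 36, at the 99.2 percentile of all tested genes, and Slc25a42 the lowest, at the 9.12 percentile, with a mean of 0.555 FPKM over the 6 libraries. A mean of at least 10 FPKM was reached by 17 carriers, 10 lay between 5 and 10 FPKM, 8 between 1 and 5 FPKM and 1 below 1 FPKM. No carrier was at 0 in any library.

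**Figure D2:**
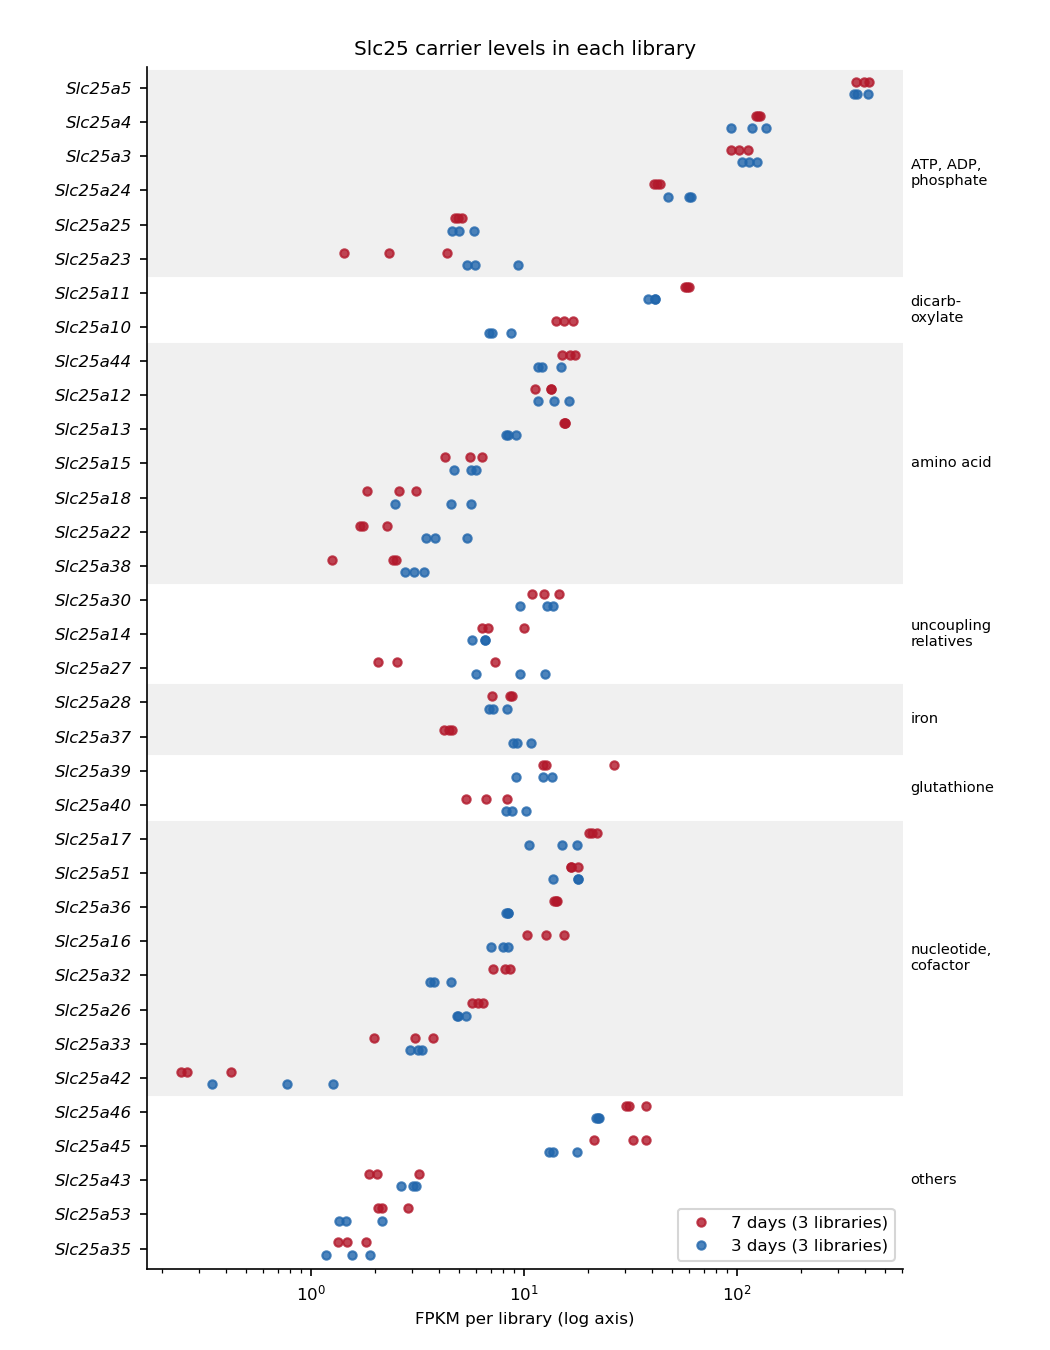
FPKM of 35 of the carriers in each library on a log axis, with 7 days in red above 3 days in blue and 3 libraries at each time. Slc25a5, Slc25a4 and Slc25a3 lie furthest to the right and Slc25a42 furthest to the left, and the red and blue points of the 13 called carriers do not overlap.

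Summed over the 36 carriers, the level was 957, 1085 and 1025 FPKM at 7 days, against 887, 954 and 1022 FPKM at 3 days. The sums of the 2 times overlapped. Slc25a3, Slc25a4 and Slc25a5 together made up 60.8 ± 0.465% of the sum at 7 days and 63.9 ± 1.13% at 3 days (SD, n = 3 each). The remaining carriers summed to 401 ± 29.7 FPKM at 7 days and to 344 ± 19.2 FPKM at 3 days.

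**Figure D3:**
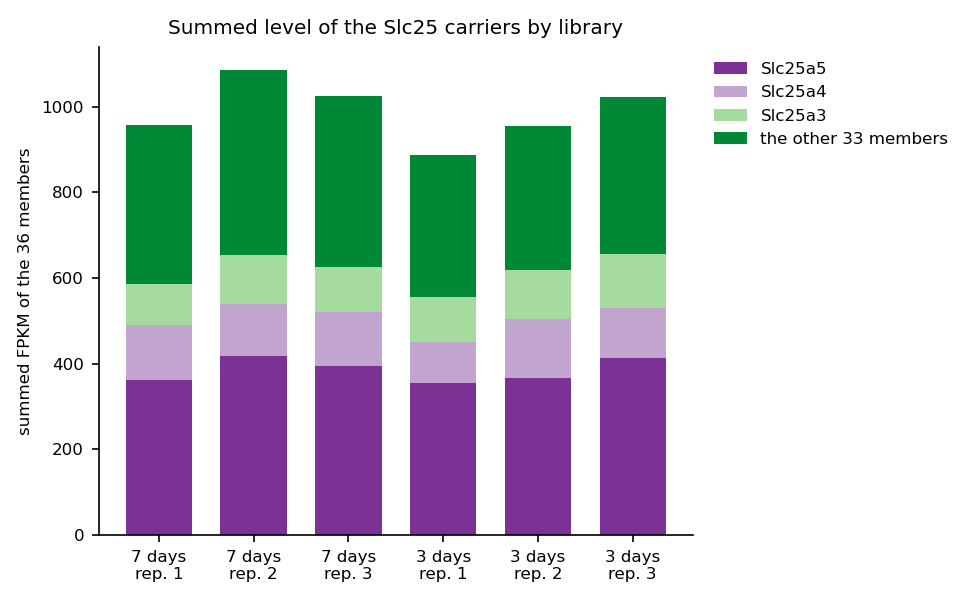
Summed FPKM of the 36 carriers in each library, 7 days left of 3 days, with each bar divided into Slc25a5, Slc25a4, Slc25a3 and all remaining members. The whole bars run from 957 to 1085 FPKM at 7 days and from 887 to 1022 FPKM at 3 days, and the 3 abundant carriers make up 60.8% of the sum at 7 days and 63.9% at 3 days on average.

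The abundant carriers of ATP, ADP and phosphate did not pass the test, while both called members of this group, the ATP-Mg carriers Slc25a23 and Slc25a24, were lower at 7 days. Of the 6 carriers in this group, 4 were not called. Slc25a5 (adenine nucleotide translocase 2, chrX:36795581-36798997) had 362, 417 and 395 FPKM at 7 days, against 355, 367 and 413 FPKM at 3 days. The ranges of the 2 times overlapped. Its change was 0.05 ± 0.12 (SE), with a 95% interval of -0.23 to 0.33 and an adjusted p of 0.759. An annotated pseudogene, Slc25a5-ps, could share reads with it, so its level is uncertain.

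Slc25a4 (adenine nucleotide translocase 1, the form typical of heart and muscle, chr8:46206527-46211047) had 129, 124 and 127 FPKM at 7 days, against 94.4, 138 and 118 FPKM at 3 days. All 3 libraries at 7 days lay inside the range at 3 days. Its change was 0.13 ± 0.14 (SE), with a 95% interval of -0.20 to 0.46 and an adjusted p of 0.482. The direction of both translocases turned under quantile normalization, to -0.068 for Slc25a4 and to -0.18 for Slc25a5, and that of Slc25a4 also turned, to -0.014, without replicate 1 at 3 days. Slc25a3 (the phosphate carrier, chr10:91116194-91124137) had 94.5, 114 and 103 FPKM at 7 days, against 106, 114 and 124 FPKM at 3 days. The libraries overlapped, and the change was -0.14 ± 0.11 (SE), with an interval of -0.40 to 0.11 and an adjusted p of 0.319. Under quantile normalization it was -0.36, with an adjusted p of 0.0225.

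Slc25a23, Slc25a24 and Slc25a25 are the calcium-regulated carriers that exchange ATP-Mg for phosphate and so set the adenine nucleotide content of the matrix. Slc25a24 (chr3:109123103-109168556) had 40.8, 42.3 and 43.7 FPKM at 7 days, against 61.1, 47.5 and 59.7 FPKM at 3 days. All 3 libraries at 7 days were below all 3 at 3 days, and its change was -0.39 ± 0.12 (SE), with an adjusted p of 0.0344. This call ended without any 1 library except replicate 2 at 3 days, with adjusted p-values of 0.0761 to 0.101, and with libraries centred on their median gene (0.125) or with a common prior variance (0.0589). Under quantile normalization the change was larger, at -0.61.

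Slc25a23 (chr17:57043911-57059748) had 2.34, 4.38 and 1.44 FPKM at 7 days, against 5.90, 5.45 and 9.43 FPKM at 3 days. All libraries at 7 days lay below those at 3 days, with replicate 3 at 3 days the highest. The change was -1.14 ± 0.32 (SE), with an adjusted p of 0.0273. The call ended without any 1 library except replicate 2 at 7 days, with adjusted p-values of up to 0.0885, and under quantile normalization. Crb3 and the antisense Gm17168 overlap its locus in GENCODE M21. Slc25a25 was not called, with an adjusted p of 0.790.

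Both measured carriers of dicarboxylates and oxoglutarate rose, 2 of 4 listed. Of all tested genes, 18.8% were called higher and 39.1% in either direction. With 2 genes the share was not tested and is not read as particular to this group. Slc25a11, the oxoglutarate-malate carrier of the malate-aspartate shuttle (chr11:70643777-70647053), had 57.1, 59.5 and 58.7 FPKM at 7 days, against 38.4, 41.2 and 41.6 FPKM at 3 days. The times did not overlap, and the libraries of each time lay close together. The level was 1.45-fold that at 3 days, a change of 0.52 ± 0.08 (SE), with an adjusted p of 0.00362. Quantile normalization gave a smaller change of 0.28, still called.

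Slc25a10, which exchanges malate or succinate for phosphate or sulphur compounds, had 15.6, 17.1 and 14.2 FPKM at 7 days, against 6.91, 7.08 and 8.71 FPKM at 3 days. Every library at 7 days lay above every library at 3 days. Its mean was 15.6 ± 1.44 FPKM (SD, n = 3) at 7 days and 7.56 ± 0.992 FPKM (SD, n = 3) at 3 days, a 2.06-fold difference, with a change of 0.96 ± 0.13 (SE) and an adjusted p of 0.00210. The table of all genes places it at chr11:120497933-120500021 and the authors' filtered table at chr11:120491875-120496930, so which exons were counted is uncertain.

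Among the 7 amino acid carriers, the aspartate-glutamate carrier Slc25a13 rose, the glutamate carrier Slc25a22 fell and 5 were not called. Slc25a13 (citrin, chr6:6041216-6217131) moves aspartate out of the matrix in exchange for glutamate. It had 15.7, 15.5 and 15.7 FPKM at 7 days, against 8.30, 9.23 and 8.43 FPKM at 3 days. The libraries of each time lay close together and far from those of the other time. Its mean was 15.6 ± 0.127 FPKM (SD, n = 3) at 7 days and 8.65 ± 0.501 FPKM (SD, n = 3) at 3 days, a 1.80-fold difference, with a change of 0.78 ± 0.10 (SE) and an adjusted p of 0.00176. Its paralogue Slc25a12 (aralar), which does the same exchange in brain, heart and muscle, had 11.3, 13.5 and 13.5 FPKM at 7 days, against 11.7, 16.4 and 13.96 FPKM at 3 days. These libraries overlapped, and the change was -0.12 ± 0.15 (SE), with an interval of -0.46 to 0.22 and an adjusted p of 0.523.

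The ratio of Slc25a13 to Slc25a12 within each library was 1.38, 1.15 and 1.17 at 7 days, against 0.707, 0.561 and 0.604 at 3 days. Slc25a13 thus stood above Slc25a12 in all 3 libraries at 7 days and below it in all 3 libraries at 3 days. The difference of the log2 ratios was 0.98 ± 0.13 (SE). Of the 3 carriers that take part in the malate-aspartate shuttle, Slc25a11 and Slc25a13 rose and Slc25a12 was not called.

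Slc25a22, which imports glutamate together with a proton and is known for its role in neurons and astrocytes (chr7:141431349-141435357), had 1.70, 1.77 and 2.29 FPKM at 7 days, against 3.48, 3.84 and 5.41 FPKM at 3 days. No library at 7 days reached those at 3 days, and replicate 3 at 3 days was the highest. The change was -0.83 ± 0.19 (SE), with an adjusted p of 0.0131, and under quantile normalization it was -0.47, with an adjusted p of 0.108. A second glutamate carrier, Slc25a18, had 3.13, 2.59 and 1.85 FPKM at 7 days, against 2.49, 5.69 and 4.55 FPKM at 3 days. Its libraries overlapped, with replicate 2 at 3 days the highest, and its adjusted p was 0.148. Without replicate 1 at 3 days it was 0.034.

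The other 3 amino acid carriers were not called. Slc25a38, which imports glycine for haem synthesis in red cell precursors, had 1.26, 2.43 and 2.53 FPKM at 7 days, against 2.76, 3.42 and 3.06 FPKM at 3 days. The times did not overlap, and the adjusted p was 0.138. Slc25a44, a carrier of branched-chain amino acids, had 16.5, 17.4 and 15.2 FPKM at 7 days, against 11.7, 12.2 and 14.9 FPKM at 3 days. These values did not overlap either, and the adjusted p was 0.0764, which passed without replicate 3 at 3 days (0.0453) and with libraries centred on their median gene (0.0467). The ornithine carrier Slc25a15 had an adjusted p of 0.947.

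Relatives of the uncoupling proteins were not called by limma, although 1 of the 3 had an unadjusted p below 0.05, and the authors' deposited table called 0 of them. That gene was Slc25a27 (uncoupling protein 4, known as a brain form, chr17:43640734-43666929), with 2.56, 2.07 and 7.35 FPKM at 7 days, against 6.01, 12.6 and 9.67 FPKM at 3 days. Replicate 3 at 7 days lay inside the range at 3 days, and replicate 2 at 3 days was the highest. The change was -1.16 ± 0.41 (SE), with an adjusted p of 0.0564. The call passed without replicate 3 at 7 days (0.014) or without replicate 1 at 3 days (0.049). Slc25a14 had an adjusted p of 0.318 and Slc25a30 one of 0.726.

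The mitoferrins import iron into the matrix for haem and iron-sulphur clusters, and mitoferrin-1 was lower at 7 days. Slc25a37 (mitoferrin-1, known as the main form of red cell precursors, chr14:69241854-69285048) had 4.48, 4.62 and 4.24 FPKM at 7 days, against 10.8, 8.92 and 9.31 FPKM at 3 days. All 3 libraries at 7 days were below all 3 at 3 days. Its mean was 4.45 ± 0.194 FPKM (SD, n = 3) at 7 days and 9.69 ± 1.02 FPKM (SD, n = 3) at 3 days, a 0.459-fold difference, with a change of -0.97 ± 0.13 (SE) and an adjusted p of 0.00186. Slc25a28 (mitoferrin-2, the widely expressed form) had 7.12, 8.80 and 8.66 FPKM at 7 days, against 6.88, 7.22 and 8.39 FPKM at 3 days. These libraries overlapped, and its adjusted p was 0.529. The ratio of Slc25a37 to Slc25a28 was 0.629, 0.525 and 0.489 at 7 days, against 1.58, 1.24 and 1.11 at 3 days. Mitoferrin-1 was below mitoferrin-2 in every library at 7 days and above it in every library at 3 days, with a difference of log2 ratios of -1.25 ± 0.19 (SE).

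Erythroid markers moved the same way as Slc25a37. The 5 tested of 10 listed summed to 16.4, 22.4 and 15.9 FPKM at 7 days, against 164, 179 and 213 FPKM at 3 days, and 4 of the 5 were called lower at 7 days. Slc4a1 was at 0 in a library. Alas2, which starts haem synthesis in red cell precursors, averaged 0.438 ± 0.0784 FPKM in the libraries of 7 days and 3.00 ± 0.626 FPKM in those of 3 days (SD, n = 3 each). Their part in the change of Slc25a37 and in the lower means of Slc25a38 was not tested. Within the 3 libraries at 3 days, Slc25a37 was highest in replicate 1 and the erythroid sum was highest in replicate 3.

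Neural markers were lower at 7 days, as were the called carriers Slc25a22 and Slc25a23. Slc25a18 and Slc25a27 had lower means at 7 days but were not called, and their libraries overlapped. The neuron markers, 9 of 9 tested, summed to 64.4, 51.3 and 50.2 FPKM at 7 days, against 152, 373 and 166 FPKM at 3 days, and none was at 0. The 6 astrocyte markers summed to 111, 95.8 and 119.7 FPKM at 7 days, against 199, 567 and 245 FPKM at 3 days. Both sums peaked in replicate 2 at 3 days, as did Slc25a18 and Slc25a27, whereas Slc25a22 and Slc25a23 peaked in replicate 3 at 3 days. The part of these cells in the 4 carriers was not tested.

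**Figure D4:**
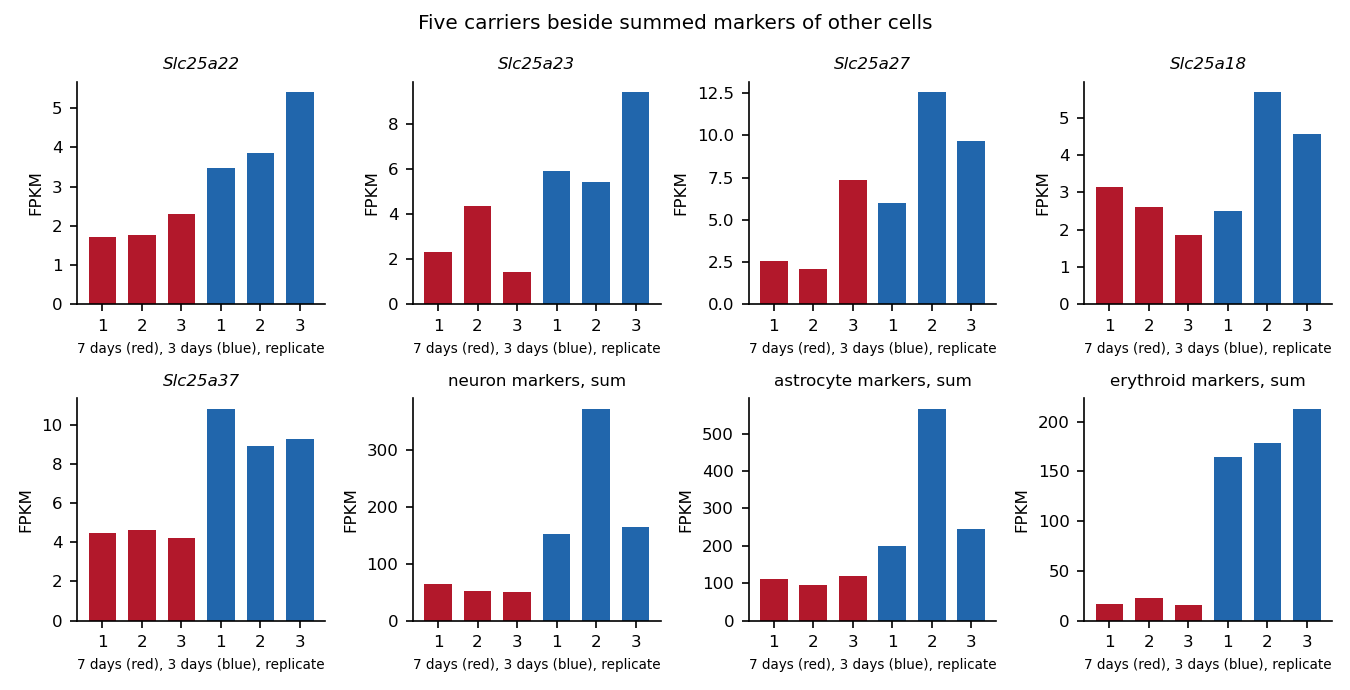
FPKM per library of Slc25a22, Slc25a23, Slc25a27, Slc25a18 and Slc25a37 and of the summed neuron, astrocyte and erythroid markers, with 7 days in red, left of 3 days in blue. The neuron and astrocyte sums are highest in replicate 2 at 3 days, at 373 and 567 FPKM, and the erythroid sums run from 15.9 to 22.4 FPKM at 7 days and from 164 to 213 FPKM at 3 days.

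The glutathione carriers Slc25a39 and Slc25a40 were not called by limma, with 0 of the 2 at an unadjusted p below 0.05 and 0 called in the authors' deposited table. Slc25a39 had 12.3, 26.7 and 12.7 FPKM at 7 days, against 9.20, 12.4 and 13.7 FPKM at 3 days. Replicate 2 at 7 days stood far above the others, and the change was 0.44 ± 0.30 (SE), with an adjusted p of 0.258. Slc25a40 had 6.67, 8.32 and 5.35 FPKM at 7 days, against 8.23, 8.82 and 10.3 FPKM at 3 days. The libraries overlapped, with a change of -0.39 ± 0.17 (SE) and an adjusted p of 0.108. Slc25a39 shares its locus in the deposited table with Rundc3a, so reads could have been split between them. The ratio of Slc25a39 to Slc25a40 did not overlap between the times, at 1.84, 3.21 and 2.37 at 7 days, against 1.12, 1.41 and 1.33 at 3 days.

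Of the 9 tested carriers of nucleotides, cofactors and vitamins, the largest group, 4 rose (Slc25a16, Slc25a17, Slc25a32 and Slc25a36) and 5 were not called. The 4 calls, all higher at 7 days, are 44.4% of the group. Of all tested genes, 18.8% were called higher and 39.1% in either direction. The group's median change was 0.23, beside -0.04 over all tested genes and 0.16 over those with a mean of 5 FPKM or more. These shares and medians were not tested. Slc25a36, which moves pyrimidine nucleotides into mitochondria (chr9:97073355-97111132), had 14.2, 14.3 and 13.96 FPKM at 7 days, against 8.30, 8.46 and 8.44 FPKM at 3 days. The libraries of each time agreed closely and the times lay far apart. Its mean was 14.2 ± 0.184 FPKM (SD, n = 3) at 7 days and 8.40 ± 0.0881 FPKM (SD, n = 3) at 3 days, a 1.69-fold difference, with a change of 0.69 ± 0.10 (SE) and an adjusted p of 0.00256. The antisense Gm16185 shares its locus, and whether counting used strand is not given in the sources used here. Its paralogue Slc25a33 had an adjusted p of 0.717, and the ratio of Slc25a36 to Slc25a33 was 7.20, 3.81 and 4.49 at 7 days, against 2.61, 2.54 and 2.88 at 3 days. Every library at 7 days had the higher ratio.

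Slc25a32, the folate carrier also linked to flavin adenine dinucleotide (chr15:39091216-39112728), had 8.64, 7.22 and 8.18 FPKM at 7 days, against 4.58, 3.66 and 3.80 FPKM at 3 days. All libraries at 7 days lay above those at 3 days. The mean was 2.00-fold that at 3 days. The change of FPKM + 1 was 0.85 ± 0.14 (SE), with an adjusted p of 0.00419, and the authors' deposited log2 change was 0.997. Slc25a16, linked to coenzyme A import through its yeast counterpart (chr10:62920643-62946497), had 12.7, 15.4 and 10.3 FPKM at 7 days, against 8.05, 7.06 and 8.44 FPKM at 3 days. Both times stayed apart, and the change was 0.63 ± 0.16 (SE), with an adjusted p of 0.0199. It lost its call without replicate 2 at 3 days (0.0588), without replicate 1 at 7 days (0.0591) and without replicate 2 at 7 days (0.0651).

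Slc25a17 differs from most of the family in sitting in the peroxisomal membrane, where it carries coenzyme A, flavin and nicotinamide cofactors (chr15:81318915-81360824). It had 20.9, 20.2 and 22.1 FPKM at 7 days, against 10.7, 17.9 and 15.2 FPKM at 3 days. All 3 libraries at 7 days were the higher ones, with replicate 1 at 3 days the lowest. The change was 0.53 ± 0.18 (SE), with an adjusted p of 0.0486, the highest of the 13 calls. The call ended without any 1 library except replicate 2 at 3 days, with adjusted p-values of 0.0639 to 0.130, under quantile normalization (0.0833) and with a common prior variance (0.0642), and the change was 0.34 without replicate 1 at 3 days.

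Slc25a26, which imports S-adenosylmethionine, had 6.48, 6.13 and 5.72 FPKM at 7 days, against 4.94, 4.87 and 5.40 FPKM at 3 days. The times did not overlap, and its adjusted p was 0.187. It shares its deposited locus with Lrig1. The NAD carrier Slc25a51 had an adjusted p of 0.731. Slc25a42, a coenzyme A carrier, had an adjusted p of 0.169, and of 0.0493 without replicate 1 at 3 days.

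Of the 5 remaining carriers, 2 rose and 3 were not called. Slc25a46, which lies in the outer mitochondrial membrane and takes part in mitochondrial fusion and fission (chr18:31579518-31609625), had 31.4, 37.5 and 30.2 FPKM at 7 days, against 22.6, 22.3 and 21.9 FPKM at 3 days. The 3 libraries at 3 days lay within 1 FPKM of each other and below all libraries at 7 days. The change was 0.54 ± 0.11 (SE), with an adjusted p of 0.00803. Slc25a45 had 21.3, 32.6 and 37.6 FPKM at 7 days, against 13.8, 13.2 and 17.9 FPKM at 3 days. The times did not overlap, and the libraries at 7 days spread widely. Its mean was 30.5 ± 8.33 FPKM (SD, n = 3) at 7 days and 14.97 ± 2.55 FPKM (SD, n = 3) at 3 days, a 2.04-fold difference, with a change of 0.95 ± 0.22 (SE) and an adjusted p of 0.0127. The adjusted p was 0.0504 without replicate 2 at 7 days. The table of all genes places it at chr19:5879783-5886023 and the filtered table at chr19:5877807-5878682, so its counted exons are uncertain. Slc25a35, Slc25a43 and Slc25a53 had adjusted p-values of 0.984, 0.339 and 0.179.

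Groups that did not overlap between the times were found for 16 carriers, 11 higher and 5 lower at 7 days. They are 44.4% of the family, beside 55.4% of all tested genes. These were the 13 called carriers and Slc25a26, Slc25a38 and Slc25a44. The calls of 7 carriers (Slc25a10, Slc25a11, Slc25a13, Slc25a32, Slc25a36, Slc25a37 and Slc25a46) held under all 15 alternatives tried and had q-values of 0.05 or less in the authors' deposited table. Genes annotated in GENCODE M21 on the opposite strand overlap Slc25a10, Slc25a11, Slc25a16, Slc25a37 and Slc25a46, as they do Slc25a23 and Slc25a36. Reads of such partners could not be told apart if counting ignored strand.

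Paralogue ratios were computed for 6 pairs, chosen by kinship and with the values known, and are given without a test. The groups did not overlap for the 4 ratios described above. They overlapped for Slc25a4 over Slc25a5, which averaged 0.324 ± 0.0293 at 7 days and 0.309 ± 0.0588 at 3 days (SD, n = 3 each). They also overlapped for Slc25a23 over Slc25a24, which averaged 0.0646 ± 0.0359 at 7 days and 0.123 ± 0.0316 at 3 days. The balance of the 2 translocases thus overlapped between the times, while that within the citrin-aralar and mitoferrin pairs did not.

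**Figure D5:**
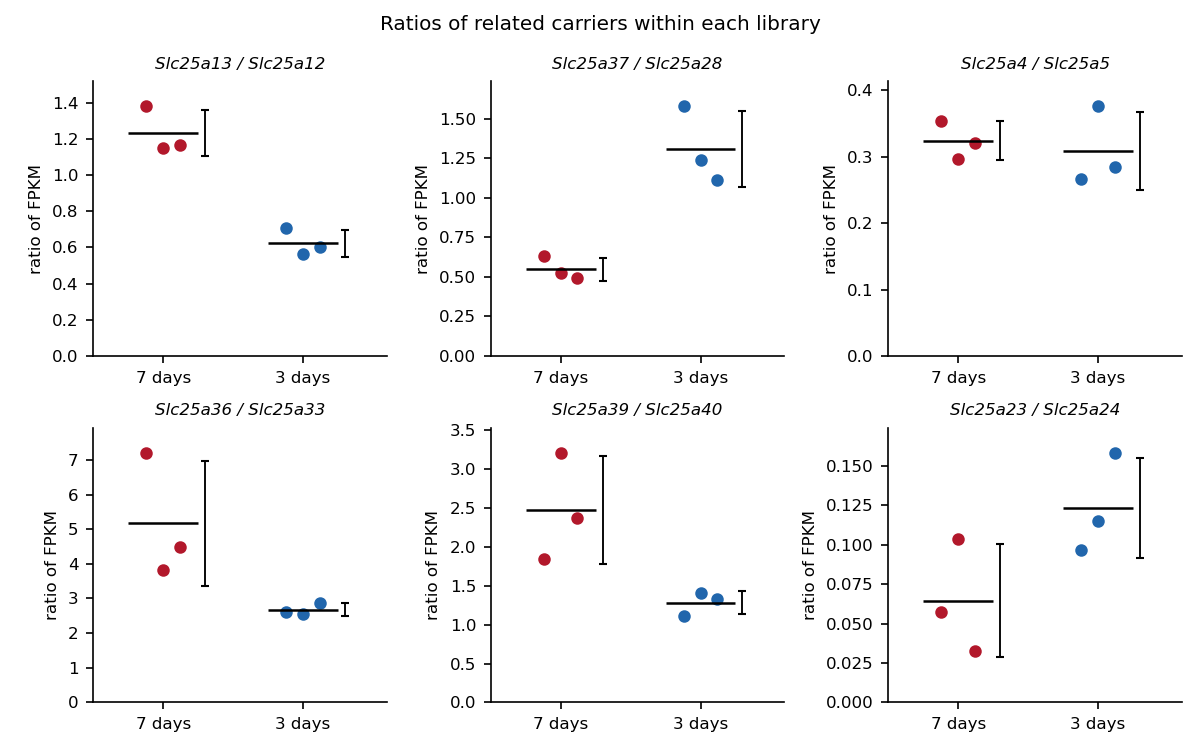
Ratio of FPKM within each library for 6 pairs of related carriers, with 7 days in red left of 3 days in blue, points for libraries, lines for means and bars for the SD of 3 libraries. Slc25a13 over Slc25a12 lies between 1.15 and 1.38 at 7 days and between 0.561 and 0.707 at 3 days, and Slc25a37 over Slc25a28 between 0.489 and 0.629 at 7 days and between 1.11 and 1.58 at 3 days.

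Promoters are shown for the 3 risen carriers with the lowest adjusted p, Slc25a13, Slc25a10 and Slc25a36, and for Slc25a22, the fallen carrier with the lowest adjusted p among those matched. Each runs from 250 bases before to 50 bases after a RefSeq transcript start on GRCm38.p6, and 27 of the 36 carriers had such an entry. Capitals mark the E-box CACGTG, or its longer form TCACGTGA, the letters bound by MYC and by the MiT/TFE and USF factors. The Slc25a13 window is chr6:6217124-6217423 and the Slc25a36 window chr9:97110992-97111291, both on the minus strand. The Slc25a10 window is chr11:120491587-120491886 on the plus strand. It covers the start of the locus in the authors' filtered table and lies outside that in the table of all genes (chr11:120497933-120500021). The Slc25a22 window shown is chr7:141435326-141435625 on the minus strand, and further windows of this gene, chr7:141434545-141434844 and chr7:141437825-141438124, are not shown.
Slc25a13: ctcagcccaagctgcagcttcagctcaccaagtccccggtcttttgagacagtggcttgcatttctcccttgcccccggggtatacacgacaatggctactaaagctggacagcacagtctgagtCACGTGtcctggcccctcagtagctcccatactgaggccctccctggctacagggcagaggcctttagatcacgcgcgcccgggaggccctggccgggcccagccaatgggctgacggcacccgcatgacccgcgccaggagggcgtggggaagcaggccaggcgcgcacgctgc
Slc25a10: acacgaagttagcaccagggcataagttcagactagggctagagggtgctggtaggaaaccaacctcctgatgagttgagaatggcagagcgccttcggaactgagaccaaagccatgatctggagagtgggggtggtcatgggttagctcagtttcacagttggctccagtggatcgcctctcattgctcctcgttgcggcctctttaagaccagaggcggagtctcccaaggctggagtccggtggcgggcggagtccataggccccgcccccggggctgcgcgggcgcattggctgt
Slc25a36: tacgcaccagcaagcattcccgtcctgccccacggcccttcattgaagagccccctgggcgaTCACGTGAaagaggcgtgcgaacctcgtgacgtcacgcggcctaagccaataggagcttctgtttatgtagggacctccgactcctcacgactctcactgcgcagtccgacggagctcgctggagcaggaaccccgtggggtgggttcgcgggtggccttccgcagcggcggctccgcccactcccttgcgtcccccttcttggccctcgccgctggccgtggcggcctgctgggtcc
Slc25a22: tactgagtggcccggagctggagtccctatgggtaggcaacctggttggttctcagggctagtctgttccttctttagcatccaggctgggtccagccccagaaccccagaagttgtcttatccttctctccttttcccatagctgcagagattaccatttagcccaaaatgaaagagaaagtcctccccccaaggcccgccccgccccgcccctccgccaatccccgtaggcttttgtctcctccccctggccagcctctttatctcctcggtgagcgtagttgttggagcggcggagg

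The E-box began 125 bases before the start of Slc25a13 and 187 bases before that of Slc25a36, where it lay inside the longer form. On either strand, CACGTG was found in 5 of the 27 carriers (18.5%), namely Slc25a13, Slc25a14, Slc25a15, Slc25a33 and Slc25a36, beside 8.09% of 27025 genes with promoters in RefSeq. Of these 5 carriers, Slc25a13 and Slc25a36 rose and the other 3 were not called. The longer TCACGTGA, which contains CACGTG, was found in Slc25a36 and in 1.13% of all genes. The YY1 letters AAGATGGCG were found in Slc25a3 and in 1.64% of all genes. The letters GCATGCGC of NRF1, CCGGAAGT of ETS factors and TCAAGGTCA of the oestrogen-related receptors were in none of the 27 carriers' windows, and in 3.05%, 4.31% and 0.466% of all genes. A match here is a description of the sequence and not evidence of binding.

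Family members with other names and the surrounding mitochondrial genes give the setting. Of 7 listed carriers under other symbols, 3 were tested. Ucp2, the uncoupling protein abundant in macrophages, rose, with a mean of 119 ± 9.29 FPKM in the libraries of 7 days and 64.3 ± 5.02 FPKM in those of 3 days (SD, n = 3 each), a change of 0.88 and an adjusted p of 0.00120. Mtch1 and Mtch2, carrier relatives of the outer membrane, were not called, with adjusted p-values of 0.931 and 0.349.

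Among 18 tested transporters of other families, 5 rose, 1 fell and 12 were not called. The calls are 33.3% of the list (27.8% higher, 5.6% lower), beside 39.1% of all tested genes (18.8% higher, 20.3% lower). The median change was 0.09, beside -0.04 over all tested genes and 0.16 over those with a mean of 5 FPKM or more. These shares and medians were not tested. Both subunits of the pyruvate carrier rose. Mpc1 averaged 56.4 ± 16.1 FPKM in the libraries of 7 days and 28.7 ± 5.26 FPKM in those of 3 days and Mpc2 40.2 ± 5.22 FPKM in the libraries of 7 days and 26.8 ± 4.89 FPKM in those of 3 days (SD, n = 3 each). Vdac2, a pore of the outer membrane, averaged 290.1 ± 14.5 FPKM in the libraries of 7 days and 195 ± 32.8 FPKM in those of 3 days. Micu2, a calcium uniporter regulator, also rose, with 57.1 ± 4.52 FPKM in the libraries of 7 days and 37.6 ± 1.54 FPKM in those of 3 days. Sfxn4, a sideroflexin, fell, with 1.72 ± 0.300 FPKM in the libraries of 7 days and 3.68 ± 0.951 FPKM in those of 3 days. Of the 9 tested genes of carrier import, 1 rose and 8 were not called. The call is 11.1% of the list, beside 39.1% of all tested genes. It was Timm22, the channel that inserts carriers into the inner membrane. Timm22 had 6.03 ± 0.662 FPKM in the libraries of 7 days and 4.18 ± 0.314 FPKM in those of 3 days, with an adjusted p of 0.0435.

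A list of 14 tested genes of respiratory chain, matrix and mitochondrial DNA maintenance is set beside the carriers. Of these, 6 rose (Cox4i1, Hspd1, Ndufs1, Sdha, Tfam and Uqcrc2), Uqcrc1 fell and 7 were not called. The calls are 50% of the list (42.9% higher, 7.1% lower), beside 39.1% of all tested genes (18.8% higher, 20.3% lower). The median change was 0.29, beside -0.04 over all tested genes and 0.16 over those with a mean of 5 FPKM or more. The shares and medians were not tested. Sdha, a subunit of succinate dehydrogenase, averaged 242 ± 19.8 FPKM in the libraries of 7 days and 157 ± 10.6 FPKM in those of 3 days (SD, n = 3 each). These genes and the carriers were measured in the same libraries, and their part in the carriers' changes was not tested.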

How the data were processed

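RiboTag RNA was sequenced from ScriptSeq v2 libraries, per the labels' protocols. The submitters' processing notes name TopHat2 2.0.12, Cufflinks 2.2, Cuffdiff 2.2.1 and mm10. The authors deposited FPKM per gene and library, their group means, log2 fold changes, test statistics (a score that was not used), p-values and q-values, in a table of 13960 rows and a filtered one of 10239 rows. How libraries were scaled to each other, the filter, use of strand and whether starts count from 0 or 1 are not given in the sources used here. FPKM keeps no read count, so depth is unknown and no counting interval is given.

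A total of 918 rows were set aside, for a test status other than OK (45 rows), library values missing the authors' mean by over 1% (838), a 0 beside 100 FPKM or more (14) or a repeated symbol (32), and none was a carrier. limma 3.58.1 in R 4.3.3 was fitted with a mean-dependent prior to log2(FPKM + 1) of the 13042 remaining genes. It compared 7 days with 3 days (n = 3 each), two-sided, with Benjamini-Hochberg adjustment over all of them, and was first tested on simulated data. With 3 libraries a time, the smallest exact permutation p is 0.1, and no such test was used. Summaries used Python 3.11.15 and pandas 2.3.3.

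Values per library were given by rule for called carriers with a larger mean of at least 2 FPKM and for the 6 with the highest level, 16 in all; further carriers were named after their values were seen. Members, lists, pairs and motifs were chosen with earlier results of these data known. Alternatives covered scaling, pseudocount, filters on low values, rows set aside, the prior, a replicate block and leaving out each library. Promoter sequences are from RefSeq on GRCm38.p6, and overlapping genes are from GENCODE M21. A carrier and a transporter of another family, both kept in the fit and the counts, are not reported here by name.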

Additional observations from a re-analysis of the deposited data

How the results depend on the processing

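Calls of carriers higher at 7 days numbered 6 to 10 over all alternatives, beside 9. Calls of lower carriers were less stable: 4 became 2 among genes with a mean of 5 FPKM or more, 2 in the authors' deposited table, and 2 to 5 when each library was left out in turn, with 2 without replicate 3 at 3 days and 2 without replicate 1 at 7 days. Among all tested genes, calls of higher genes ran from 1572 to 2207 and of lower genes from 1697 to 2565 when each library was left out, both lowest without replicate 2 at 7 days, and lower genes numbered 1204 among those with a mean of 5 FPKM or more, where 8067 genes were tested. The carriers' median change was 0.20 under quantile normalization, beside a median of 0.05 over all genes there; among genes with a mean of 1 FPKM or more it was 0.077, beside 0.061 over all genes, and among those with a mean of 5 FPKM or more 0.13, beside 0.16. Under quantile normalization Slc25a4 changed by -0.068 and Slc25a5 by -0.18, and leaving out each library gave Slc25a4 changes of -0.014 to 0.26; the cause was not tested. Libraries share replicate numbers, but the labels do not say that a number marks a pair. Deviations from the group means correlated across genes at 0.0995, 0.0054 and 0.0047 for same-numbered libraries of replicates 1, 2 and 3. Differently numbered libraries had -0.0517 to 0.0428, so the value of replicate 1 was the highest. All were small, and the numbers were not taken as pairs. With the replicate number as a block, 9 carriers were called higher and 5 lower, Slc25a27 being added with an adjusted p of 0.0428. Of 254 values of single carriers under alternatives, 223 kept their direction and side of the threshold. With 3 libraries a time and FPKM alone, small changes of carriers near 1 FPKM were not resolved.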
